A study of Mus musculus with 9 samples.

Results

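The genes described here encode the nuclear part of oxidative phosphorylation. They were taken as every gene whose single symbol in the array's platform annotation starts with Nduf and one of the letters a, b, c, s or v, with Uqcr, with Cox4 to Cox8 or with Atp5, or is one of the 4 Sdh genes. Of 18193 genes with a single symbol on the array, 90 met the rule, through 179 probe sets. For the 51 genes with several probe sets, the one with the highest mean log2 signal over the 9 arrays was used, so the choice rested on level and not on any difference between groups. By role, 34 genes encode subunits of complex I, 8 are assembly factors of complex I with Ndufaf symbols, 4 encode complex II, 8 complex III, 17 complex IV and 17 complex V. Ndufa4, now placed in complex IV, and its paralogue Ndufa4l2 were counted apart.

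The study compared cultured lung cells of 3 kinds, with 3 Affymetrix arrays each: wild type (Nrf2+/+), knockout (Nrf2-/-) and Nrf2-/- supplemented with GSH, the usual abbreviation of glutathione. All were labelled as type II cells from female ICR10 mice of 2 months, freed with Dispase in 45 minutes, depleted of macrophages and fibroblasts by adherence, and grown for 5 days with keratinocyte growth factor on fibronectin and collagen. The labels name the Nrf2-/- genotype but no construct, give no dose or timing of GSH and list no treatment for any array, and no GSH-supplemented wild-type cells were analysed here. Whether the 3 arrays of each group stand for different animals or cultures is not stated, so the p-values measure only the spread between these arrays. A code in the titles puts 2 arrays of each group in set 2 (wild type 3 and 4, knockout 2 and 3, GSH 2 and 3) and 1 in set 3 (wild type 5, knockout 4, GSH 4). What the set stands for is not stated, and values are given below in that order, the set 3 array last in each group.

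Oxidative phosphorylation makes ATP in the inner mitochondrial membrane. Complex I takes electrons from NADH and complex II from succinate, complex III passes them from ubiquinone to cytochrome c, and complex IV passes them on to oxygen; the proton gradient built by complexes I, III and IV drives complex V, the ATP synthase. Type II cells, which make surfactant, are rich in mitochondria. Nrf2, encoded by Nfe2l2, is a transcription factor that induces antioxidant and glutathione-producing enzymes by binding the antioxidant response element; nuclear respiratory factor 1, encoded by Nrf1, is a different protein with a similar abbreviation that binds the promoters of many respiratory chain genes.

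The promoters of 4 members are shown because the results below turn on these genes: Uqcrc1, Ndufaf5 and Cox8a were the members whose difference between knockout and wild type passed the test whichever array was left out, and Ndufb11 had the smallest p-value with GSH against knockout. Each is the RefSeq window (GRCm38.p6) from 250 bases before to 50 bases after the gene's start, 5′ to 3′ on the gene's strand, with capitals for matches to the nuclear respiratory factor 1 motif (a GCGC, 2 bases of any kind and a second GCGC) or the ETS-family motif CCGGAAG on either strand. The windows lie at chr9:108936398-108936697 on the plus strand, chr2:140170396-140170695 on the plus strand, chrX:20617570-20617869 on the minus strand and chr19:7217567-7217866 on the minus strand.
Uqcrc1: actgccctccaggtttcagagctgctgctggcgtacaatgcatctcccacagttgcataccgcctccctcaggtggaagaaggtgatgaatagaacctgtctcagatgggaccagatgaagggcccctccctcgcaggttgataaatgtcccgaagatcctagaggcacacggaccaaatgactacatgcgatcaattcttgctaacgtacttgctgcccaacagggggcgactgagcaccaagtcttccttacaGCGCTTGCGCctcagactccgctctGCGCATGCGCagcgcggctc
Ndufaf5: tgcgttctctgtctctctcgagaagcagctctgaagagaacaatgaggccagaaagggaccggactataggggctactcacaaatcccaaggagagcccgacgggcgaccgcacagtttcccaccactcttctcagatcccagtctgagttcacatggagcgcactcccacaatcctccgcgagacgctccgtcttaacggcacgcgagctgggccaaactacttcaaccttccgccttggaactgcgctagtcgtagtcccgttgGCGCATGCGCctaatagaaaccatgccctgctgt
Ndufb11: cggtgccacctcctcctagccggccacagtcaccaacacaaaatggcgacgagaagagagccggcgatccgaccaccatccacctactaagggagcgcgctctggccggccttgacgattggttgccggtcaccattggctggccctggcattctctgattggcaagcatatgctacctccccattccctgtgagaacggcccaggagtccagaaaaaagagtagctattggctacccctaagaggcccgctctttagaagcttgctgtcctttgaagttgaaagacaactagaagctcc
Cox8a: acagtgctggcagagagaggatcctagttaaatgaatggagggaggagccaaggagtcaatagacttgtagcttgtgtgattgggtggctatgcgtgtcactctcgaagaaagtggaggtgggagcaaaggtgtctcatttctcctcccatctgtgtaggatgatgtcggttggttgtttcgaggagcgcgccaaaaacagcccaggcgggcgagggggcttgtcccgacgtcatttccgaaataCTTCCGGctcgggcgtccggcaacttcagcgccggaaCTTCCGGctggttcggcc
Uqcrc1 had 2 matches to the nuclear respiratory factor 1 motif and Ndufaf5 had 1, Cox8a had 2 matches to the ETS motif, and the Ndufb11 window held neither. A core of the antioxidant response element, TGACNNNGC, was in none of these 4 windows. Promoter windows were matched for 74 of the 90 members. The antioxidant response core was in 10 of them (13.5%), beside 13.99% of all 27025 genes with a window. The nuclear respiratory factor 1 motif was in 19 (25.7%), beside 7.00% of all genes, and the ETS motif also in 19 (25.7%), beside 9.93%. These matches describe letters in a window and are not evidence of binding. Neither strand of any motif contains another motif.

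The array signals were those deposited, with a 2% trimmed mean of 500 on every array and medians of 102 to 142.6. Members were among the bright probe sets: 69 or 70 of the 90 lay above the 90th percentile of each array. That end of the scale differed between groups, the 99th percentile being 9365 to 9683 in wild type, 9970 to 10564 in knockout and 10669 to 11032 with GSH, and this is taken up with complex IV below. On its brightest probe set Nfe2l2 had signals of 3879, 3889.8 and 4173 in wild type, and at most 77.4 on each Nrf2-/- array. The sex-linked genes did not match the label: the brightest Xist probe set had a mean of 157 in wild type against 3203 in knockout and 3510.0 with GSH, and the Y-linked genes Eif2s3y, Uty and Kdm5d had their signal in wild type. Ndufb11 and Ndufa1 are X-linked, and for both comparisons with wild type this difference cannot be told apart from genotype. Markers of other cells also moved with the groups. The 12 macrophage markers summed to 33085 to 34129 in wild type, 66569 to 73609 in knockout and 87711 to 102711 with GSH, and all 12 were called higher in both comparisons with wild type. The 10 fibroblast markers summed to 70429 to 75805, 89204 to 120288 and 35126 to 43947 in the same order, with 9 of 10 called lower with GSH than without. The club cell marker Scgb1a1 averaged 6725, 281 and 2490.4, the other 2 club markers being too dim to test. Of 5 tested endothelial markers 2 were lower in knockout and 5 with GSH against wild type, and of 6 type I markers 4 and 3 were lower. With GSH against wild type 1 type I marker was higher. With GSH against knockout 2 type I markers and 1 endothelial marker were higher, and 0 of either list were lower. Against the label of type II cells, the surfactant protein gene Sftpc averaged 37.3 on the wild-type arrays, 89.1 on those of the knockout and 108 on those given GSH, and it and Sftpa1 were too dim to be tested. The other 7 type II markers on the array were tested: 1 was higher and 1 lower in knockout, and 4 were higher and 0 lower with GSH against knockout by limma, among them Abca3 and Napsa. The 9 together summed to 4768 to 5794 in wild type, 4905 to 5590.1 in knockout and 6570.5 to 7916.5 with GSH. The part of these cell types in the results below was not tested, and in such mixed samples fewer cells of a type and less RNA per cell cannot be told apart.

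In knockout against wild type cells, 10 of the 85 members that passed the filter on dim probe sets were called higher and 7 lower (limma, Benjamini-Hochberg adjusted p under 0.05 over all 22519 probe sets past the filter). That was 11.8% and 8.24% of them, where 14.6% of all probe sets were higher and 14.6% lower. With GSH against without, 7 members were higher and 8 lower, 8.24% and 9.41%, beside 18.4% and 17% of all probe sets. In GSH-supplemented knockout against wild type, 22 were higher and 12 lower, 25.9% and 14.1%, beside 22.5% and 22.3%. After quantile normalisation of the arrays, 16 were higher and 15 lower in that comparison. The counts by complex below are to be set beside the same shares of all probe sets. Changes here and below are log2 differences ± their standard error from the fit, with 3 arrays a group, and signals are in the arrays' arbitrary units. The 5 members under the filter were Cox7a1, Cox7b2, Cox8b, Ndufa4l2 and Ndufb4. The changes were small: the median absolute log2 change over members was 0.14, 0.10 and 0.18 in the 3 comparisons, beside 0.22, 0.25 and 0.31 over all probe sets. No tested member reached 1.5-fold in the first and second comparison and 2 did in the last, Ndufb1 and Ndufaf6, whereas 14.2%, 19.8% and 25.4% of all probe sets did. The median change of the members was 0.06, 0.01 and 0.08, beside 0.00, 0.04 and 0.02 over all probe sets. In all, 43 of the 85 members were called in at least 1 comparison and 42 in none. The knockout arrays enter both the first and the second comparison, so a member's changes in these are not independent of each other.

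**Figure D1:**
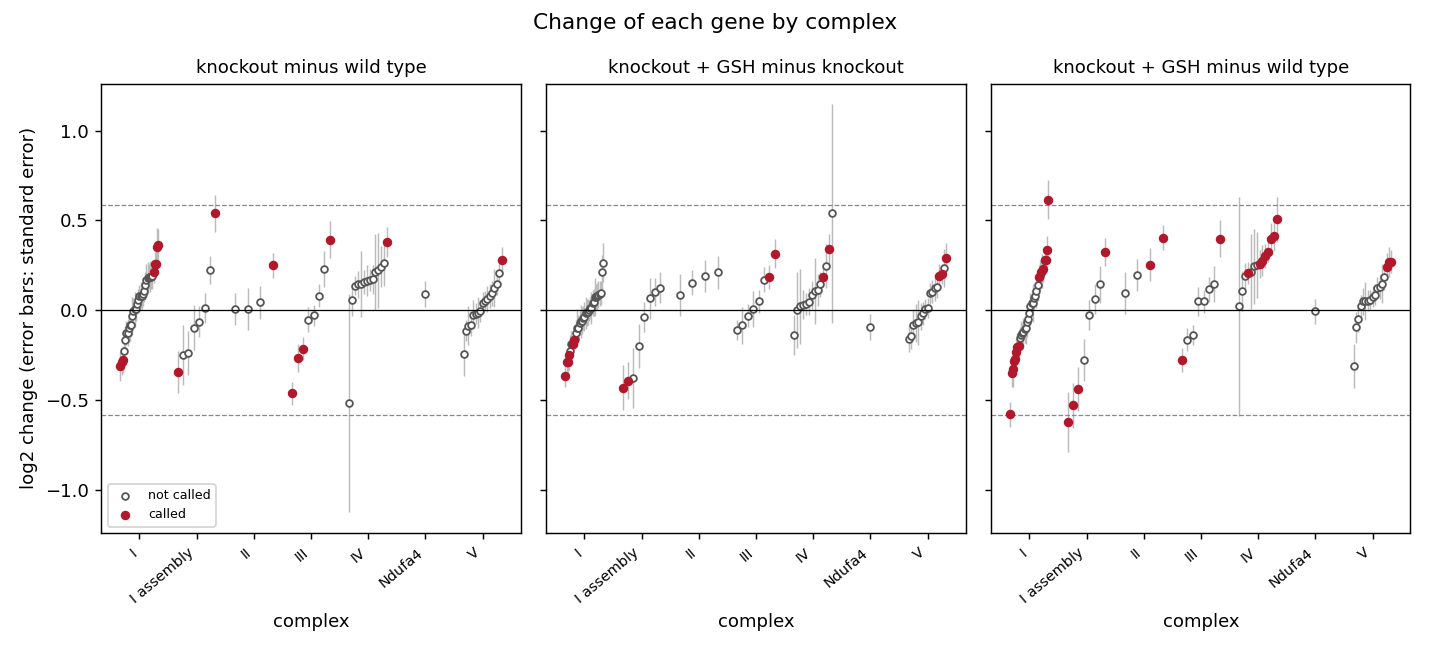
Log2 change of each of the 85 tested members (points, with the standard error as a bar), ordered by size within its complex on the x axis, for the 3 comparisons. Red points were called at a limma adjusted p under 0.05, open points were not, and dashed lines mark 1.5-fold. With GSH against without, 0 of the 33 tested complex I genes were called higher and 6 (18.2%) lower, beside 18.4% and 17% of all probe sets. In GSH-supplemented knockout against wild type 8 complex IV genes (57.1%) were called higher, beside 22.5% of all probe sets, and none lower.

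Not every call held when an array was left out. Of the 17 calls between knockout and wild type, 3 were kept in all 9 such fits (Cox8a, Ndufaf5 and Uqcrc1). With GSH against without, 5 of 15 were kept (Ndufa5, Ndufaf5, Ndufb11, Ndufs8 and Uqcr11), and against wild type 18 of 34. Without wild type 4, the knockout comparison had 3 members higher and 2 lower; without wild type 3, knockout 2 or knockout 4 a count there also moved by more than 1.5-fold. Without the set term in the fit, the counts were 1 higher and 0 lower, 0 and 1, and 8 and 3 in the 3 comparisons. Within set 2 alone, 7 of the 17 calls between knockout and wild type were made, 6 of the 15 with GSH and 23 of the 34 against wild type. The single arrays of set 3 differed in the same direction as every one of these 17, 15 and 34 calls. The arrays of both sets entered the fit that made the calls, so neither result is an independent check of them. The replicate numbers pair the knockout arrays with the GSH arrays; with the pair as a block, fitted on those 6 arrays, 3 members were higher and 4 lower with GSH, and these were 7 of the 15 calls. The 6 arrays without the block also gave 3 and 4. Each call with GSH said below to be missing with the replicate block was also missing on these 6 arrays without it.

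Complex I is the largest complex of the chain. Its core subunits of nuclear origin include the NADH-binding flavoprotein Ndufv1, the iron-sulphur proteins Ndufv2, Ndufs1, Ndufs7 and Ndufs8, and Ndufs3. Between knockout and wild type 5 of the 33 tested complex I genes were higher (Ndufa3, Ndufb1, Ndufb11, Ndufs4 and Ndufv3) and 3 lower (Ndufb10, Ndufb6 and Ndufs8), with a median log2 change of 0.08. That was 15.2% and 9.09%, beside 14.6% higher and 14.6% lower of all probe sets. Leaving out 1 array gave 0 to 8 higher and 1 to 3 lower, with 0 higher without knockout 4, 1 without wild type 4, and 2 without wild type 3 or knockout 3. With GSH against without, 6 were lower (Ndufa12, Ndufa5, Ndufa9, Ndufb11, Ndufb9 and Ndufs8) and 0 higher by limma, with 1 higher and 9 lower at an unadjusted p under 0.05. The 6 lower were 18.2% of the 33, beside 17% of all probe sets, while 18.4% of all probe sets were higher. Against wild type, GSH-supplemented cells had 7 higher and 8 lower, 21.2% and 24.2%, beside 22.5% and 22.3% of all probe sets. With GSH against without, leaving out 1 array gave 0 to 2 higher and 3 to 7 lower, with 2 higher and 3 lower without knockout 4 or GSH 4 and 3 lower also without wild type 4, and set 2 alone gave 2 and 2.

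Among the core subunits, Ndufv1 was 2333, 2660.4 and 2731 in wild type, 2221, 2158 and 2867 in knockout and 2036, 2163 and 2385 with GSH. Its only call was lower in GSH-supplemented cells than in wild type (-0.23 ± 0.08, adjusted p = 0.031), with groups that overlapped, and it was lost without wild type 4 or GSH 2 or 4 (adjusted p up to 0.16). Ndufv2 was 4880.1, 4906 and 4804 in wild type, 4988, 5349 and 5384 in knockout and 4822, 4769.9 and 4497 with GSH. Its knockout arrays lay above those of the other groups, but the difference was not called (GSH minus knockout -0.16 ± 0.06, adjusted p = 0.059). Another Ndufv2 probe set was called the other way in knockout minus wild type (-0.23, adjusted p = 0.034), so no direction is given. Ndufs1 was 1509, 1506 and 1777 in wild type, 1319.7, 1512 and 1562 in knockout and 1313, 1472.5 and 1571 with GSH. Ndufs3 was 2546, 2645 and 2652 in wild type, 2713.5, 3008 and 2923 in knockout and 2953, 2639 and 2491 with GSH. Ndufs7 was 2728, 2827 and 2483.5 in wild type, 2591, 2941 and 2481 in knockout and 2837, 2940.3 and 2226 with GSH. None of these 3 was called in any comparison. Their intervals for knockout minus wild type were -0.29 to 0.04, -0.03 to 0.30 and -0.17 to 0.16 on the log2 scale (95%), and their groups overlapped except for Ndufs3 between wild type and knockout.

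Ndufs8, a core iron-sulphur subunit, was the only member called lower in all 3 comparisons, but its probe sets differed. On the brightest the signal was 5526, 5681 and 4686 in wild type, 4849, 4257 and 3905 in knockout and 3771, 3454 and 3379 with GSH. It was lower in knockout than in wild type (-0.29 ± 0.07, adjusted p = 0.0097), lower again with GSH (-0.29 ± 0.07, adjusted p = 0.007) and lower with GSH than in wild type (-0.58 ± 0.07, adjusted p = 4.1e-05); GSH arrays lay below all others. The call against wild type in knockout cells was lost without wild type 4 (adjusted p = 0.052). Of its 5 other probe sets, one was higher in knockout by 0.74 ± 0.09 (adjusted p = 0.00012) and by 0.95 with GSH against wild type, a second was higher by 0.45 with GSH against wild type (adjusted p = 0.0019), and 3 were called in no comparison. The mean over all 6 gave 0.13 for knockout minus wild type (adjusted p = 0.18), so no direction is given for the gene.

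Accessory subunits surround the core and are needed for its assembly and stability. Ndufs4, whose loss in mice is a model of Leigh syndrome, was 1888, 2049.8 and 1620.0 in wild type, 2226.5, 2512.5 and 2382 in knockout and 2238, 2157 and 1729 with GSH. Knockout arrays were all above wild type (0.36 ± 0.09, adjusted p = 0.0091), and the call was lost without knockout 4 (adjusted p = 0.054). A second tested probe set of Ndufs4 was not called (0.10 ± 0.16, limma adjusted p = 0.71). Ndufb1, a subunit of the membrane arm, was 561, 474 and 558 in wild type, 658, 711 and 657 in knockout and 871, 863 and 709 with GSH. It had the largest rise of any member in GSH-supplemented cells against wild type (0.61 ± 0.11, adjusted p = 0.00075), about 1.53-fold, with no overlap, and was already above wild type in knockout (0.35 ± 0.11, adjusted p = 0.032). The knockout call was lost without wild type 3 or 4 or knockout 3 or 4 (adjusted p up to 0.15); the other was kept whichever array was left out. Ndufa3, another small subunit of complex I, was 5453, 5509.9 and 5824 in wild type, 5979, 7022 and 7126 in knockout and 7136, 7306 and 6754 with GSH. Both Nrf2-/- groups lay above wild type (0.26 ± 0.07, adjusted p = 0.023 in knockout and 0.34 ± 0.07, adjusted p = 0.0033 with GSH). The knockout call was lost without wild type 3, 4 or 5 or knockout 3 or 4 (adjusted p up to 0.11), and that with GSH was kept in all 9 fits.

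Ndufb10, a subunit of the membrane arm, was 2934, 2849 and 3024 in wild type, 2175, 2500.1 and 2428 in knockout and 2022, 2349 and 2576 with GSH. All Nrf2-/- arrays were below wild type (-0.31 ± 0.08, adjusted p = 0.014 in knockout and -0.35 ± 0.08, adjusted p = 0.0045 with GSH). Its knockout call was lost without wild type 3 or knockout 2 or 4 (adjusted p up to 0.066), and that with GSH was kept in all 9 fits.

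Ndufb11, a membrane-arm subunit encoded on the X chromosome, was 4570.4, 4423 and 4686 in wild type, 5318, 4963 and 5585.5 in knockout and 4063.5, 3831 and 4413 with GSH. The GSH arrays lay below the knockout arrays without overlap, and below those of wild type as well. Its fall with GSH against without, -0.37 ± 0.06, adjusted p = 0.00051, had the smallest p-value of any member in that comparison, was kept whichever array was left out and was -0.38 in set 2 and -0.34 in set 3. With the replicate block the adjusted p was 0.0043. Its 2 other probe sets fell by 0.42 and 0.48. In knockout against wild type it rose (0.21 ± 0.06, adjusted p = 0.02), a call lost without wild type 4 or 5 or knockout 2 or 4 (adjusted p up to 0.09). Both sides of the comparison with GSH are Nrf2-/-; between them the brightest Xist probe set did not pass the test (0.15, adjusted p = 0.56) and a dimmer one was higher with GSH (1.02, adjusted p = 0.0005), whose part in this fall was not tested.

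Ndufa5, a subunit of the matrix arm, was 1546.5, 1562 and 2003 in wild type, 1445, 1619 and 2106 in knockout and 1236, 1319 and 1652 with GSH. Within each set the GSH arrays were below both other groups, although the groups overlapped over the 2 sets; the change was -0.29 ± 0.07, adjusted p = 0.0072 against knockout and -0.28 ± 0.07, adjusted p = 0.0068 against wild type. The other accessory subunits with a call ranged from -0.32 ± 0.10 (Ndufs5) to 0.28 (Ndufb7 and Ndufb8) against wild type with GSH. The other X-linked gene, Ndufa1, was 6962, 7070.3 and 7596.5 in wild type, 7849.8, 8353 and 8426 in knockout and 9077, 8478 and 7807 with GSH, called higher with GSH against wild type (0.23 ± 0.07, adjusted p = 0.022) and lost without wild type 3 or 4 or GSH 2 or 3 (adjusted p up to 0.093); under quantile normalisation it was not called (adjusted p = 0.098). The fall of Ndufa9 with GSH against knockout (-0.16 ± 0.06, adjusted p = 0.048) was lost whichever array was left out, and those of Ndufa12 and Ndufb9 were lost without wild type 4 or knockout 2 or 4 or GSH 2 or 4 (adjusted p up to 0.10) and without wild type 3 or 4 or knockout 3 or 4 or GSH 4 (adjusted p up to 0.22). A second probe set of Ndufb9 was called the other way (0.17, adjusted p = 0.046). With the replicate block the calls of Ndufa12, Ndufa9 and Ndufb9 with GSH were not made (adjusted p = 0.088, 0.12 and 0.10), while those of Ndufa5, Ndufb11 and Ndufs8 were.

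**Figure D2:**
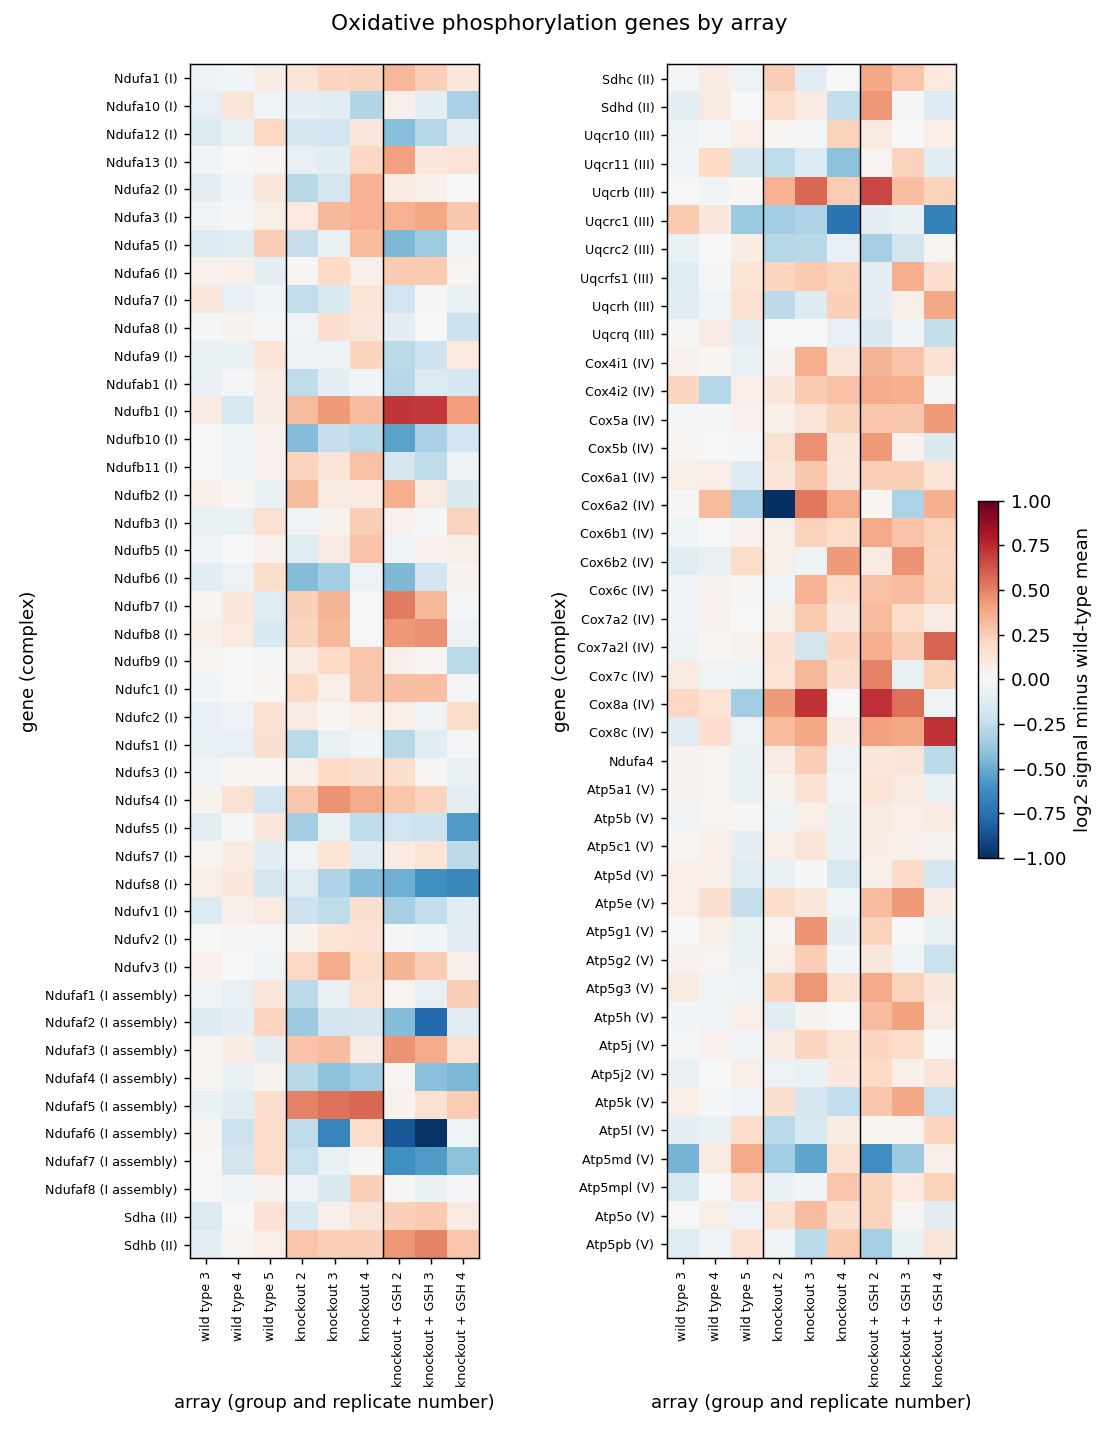
Log2 signal of the 85 tested members on each of the 9 arrays, minus the gene's mean in wild type, by complex; red is higher than wild type and blue lower, with the colour held at 1 beyond ±1. Ndufaf5 is red on the 3 knockout arrays, Ndufb1 on all 6 Nrf2-/- arrays, and Uqcrc1 is darkest blue on knockout 4 and GSH 4, both of set 3.

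The Ndufaf genes encode assembly factors, which build complex I and are not part of it. Ndufaf5, which hydroxylates an arginine of Ndufs7 during assembly, was 358, 349 and 421 in wild type, 529, 546 and 556 in knockout and 383, 415 and 446 with GSH. The 3 knockout arrays were above all 6 others. It rose by 0.54 ± 0.10 in knockout (adjusted p = 0.0024), about 1.45-fold and the largest called change of any member in that comparison, and fell with GSH (-0.39 ± 0.10, adjusted p = 0.011), both kept whichever array was left out. With GSH it did not pass the test against wild type (0.15 ± 0.10, adjusted p = 0.28, interval -0.08 to 0.37). With the replicate block the fall with GSH had an adjusted p of 0.037.

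Ndufaf4, another assembly factor, was 1228, 1147 and 1232 in wild type, 993, 907 and 944 in knockout and 1227, 901 and 882 with GSH. Knockout arrays were all below wild type (-0.34 ± 0.12, adjusted p = 0.046), but the call was lost without wild type 3, 4 or 5 or knockout 2, 3 or 4 (adjusted p up to 0.18) and under quantile normalisation (adjusted p = 0.071); a second probe set fell by 0.53 (adjusted p = 0.0023). Ndufaf7, an arginine methyltransferase of complex I assembly, was 339.9, 301 and 388 in wild type, 292, 323 and 343 in knockout and 223, 229.9 and 257 with GSH. GSH arrays were below every other array (-0.43 ± 0.13, adjusted p = 0.019 against knockout and -0.53 ± 0.13, adjusted p = 0.0051 against wild type), with an adjusted p of 0.071 against knockout under the replicate block; the former was also lost without knockout 3 or GSH 4 (adjusted p up to 0.061). Ndufaf6 was 379.8, 323 and 419.7 in wild type, 311, 236 and 419 in knockout and 207, 188 and 361 with GSH. Its fall with GSH against wild type (-0.62 ± 0.17, adjusted p = 0.01, or 1.54-fold) came mostly from set 2 (-0.83, against -0.22 in set 3), and it was lost without wild type 3 (adjusted p = 0.057). Ndufaf3 was 714, 737 and 653 in wild type, 851, 866 and 741 in knockout and 958, 907 and 777 with GSH. It was the assembly factor called higher with GSH against wild type (0.32 ± 0.08, adjusted p = 0.0054), with no overlap. Among the 8, knockout against wild type gave 1 higher and 1 lower, GSH against knockout 0 higher and 2 lower by limma (0 and 3 at an unadjusted p under 0.05), and GSH against wild type 1 higher and 3 lower.

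Complex II is succinate dehydrogenase, which also works in the tricarboxylic acid cycle, and all 4 of its subunits are nuclear genes. Sdha, the flavoprotein, was 2797, 3061 and 3401 in wild type, 2764, 3183 and 3365 in knockout and 3633, 3692 and 3273 with GSH. Sdhb, the iron-sulphur subunit, was 4085, 4440.4 and 4545.5 in wild type, 5264, 5126 and 5144 in knockout and 5893, 6151 and 5272 with GSH. The 3 groups of Sdhb arrays did not overlap, wild type being lowest and GSH highest. It rose in knockout (0.25 ± 0.07, adjusted p = 0.02) and was 0.40 ± 0.07 above wild type with GSH (adjusted p = 0.00067). The step from knockout to GSH was not called (0.15 ± 0.07, adjusted p = 0.12), and the knockout call was lost without wild type 3 or 4 or knockout 2 or 4 (adjusted p up to 0.11).

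The membrane anchors are Sdhc, which was 2984, 3197 and 2912 in wild type, 3597, 2798 and 3019 in knockout and 3962, 3677 and 3234 with GSH, and Sdhd, which was 3518, 3977 and 3732 in wild type, 4251, 3959 and 3163 in knockout and 5047, 3679.8 and 3414 with GSH. Sdhc was called higher with GSH against wild type (0.25 ± 0.09, adjusted p = 0.04), a call lost without wild type 3, 4 or 5 or GSH 2 or 3 (adjusted p up to 0.14), and its second probe set was not called. Neither Sdha nor Sdhd was called in any comparison on its brightest probe set, while a second probe set of Sdha was higher with GSH against wild type (0.43, adjusted p = 0.0022). With GSH against knockout the 4 subunits had a median of 0.17 and 0 calls by limma, with 1 higher and 0 lower at an unadjusted p under 0.05. With the mean over each gene's probe sets 3 were higher, without GSH 4 there were 2, and without knockout 2 there was 1.

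Complex III had the member with the smallest p-value between knockout and wild type. Uqcrc1, a core protein of the complex that faces the matrix, was 5259, 4739.5 and 3406 in wild type, 3461, 3546 and 2642 in knockout and 4123, 4192 and 2757 with GSH. The set 3 array was the lowest of each group, so the groups overlapped over both sets, while within each set knockout was below wild type. The fall in knockout was -0.46 ± 0.07, adjusted p = 0.00031, or 1.38-fold. It was -0.51 in set 2 and -0.37 in set 3 and was kept whichever array was left out. With GSH the signal was higher than in knockout by 0.19 ± 0.07, just past the threshold (adjusted p = 0.048). That call was lost without any array but knockout 4 (adjusted p up to 0.14) and with the replicate block (0.10). Against wild type, GSH cells were still lower (-0.28 ± 0.07, adjusted p = 0.005).

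Uqcr11, the smallest subunit of complex III, was 3047, 3587 and 2769.9 in wild type, 2619.8, 2829.5 and 2351 in knockout and 3169, 3656.5 and 2898 with GSH. Knockout arrays were the lowest of each set. It fell in knockout (-0.27 ± 0.08, adjusted p = 0.027), lost without wild type 4 or 5 or knockout 2 or 4 (adjusted p up to 0.14), rose with GSH (0.32 ± 0.08, adjusted p = 0.009; 0.01 with the replicate block), and against wild type was 0.05 ± 0.08, with an interval of -0.12 to 0.22. Uqcrb, the ubiquinone-binding protein, was 12343.5, 12089 and 12449 in wild type, 15684, 18306 and 14670.1 in knockout and 19567, 15160.2 and 14357 with GSH. All Nrf2-/- arrays were above wild type (0.39 ± 0.10, adjusted p = 0.013 in knockout and 0.40 ± 0.10, adjusted p = 0.0075 with GSH). Under quantile normalisation the knockout change was 0.17 (adjusted p = 0.057), and the call was also lost without wild type 3 or 4 (adjusted p up to 0.062). Its second probe set was not called (0.05 and 0.09). Uqcrc2, the other core protein, was also lower in knockout (-0.21 ± 0.06, adjusted p = 0.029), a call lost without wild type 3 or 4 or knockout 2, 3 or 4 (adjusted p up to 0.14). Its second probe set fell by 0.38 (adjusted p = 0.0048). Of the 8 genes, 1 was higher and 3 lower in knockout, 2 higher and 0 lower with GSH against without (3 and 0 at an unadjusted p under 0.05), and 1 higher and 1 lower with GSH against wild type. Leaving out 1 array gave 0 to 2 and 1 to 3, 1 to 2 and 0, and 1 to 2 and 1 to 2 in the same order.

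**Figure D3:**
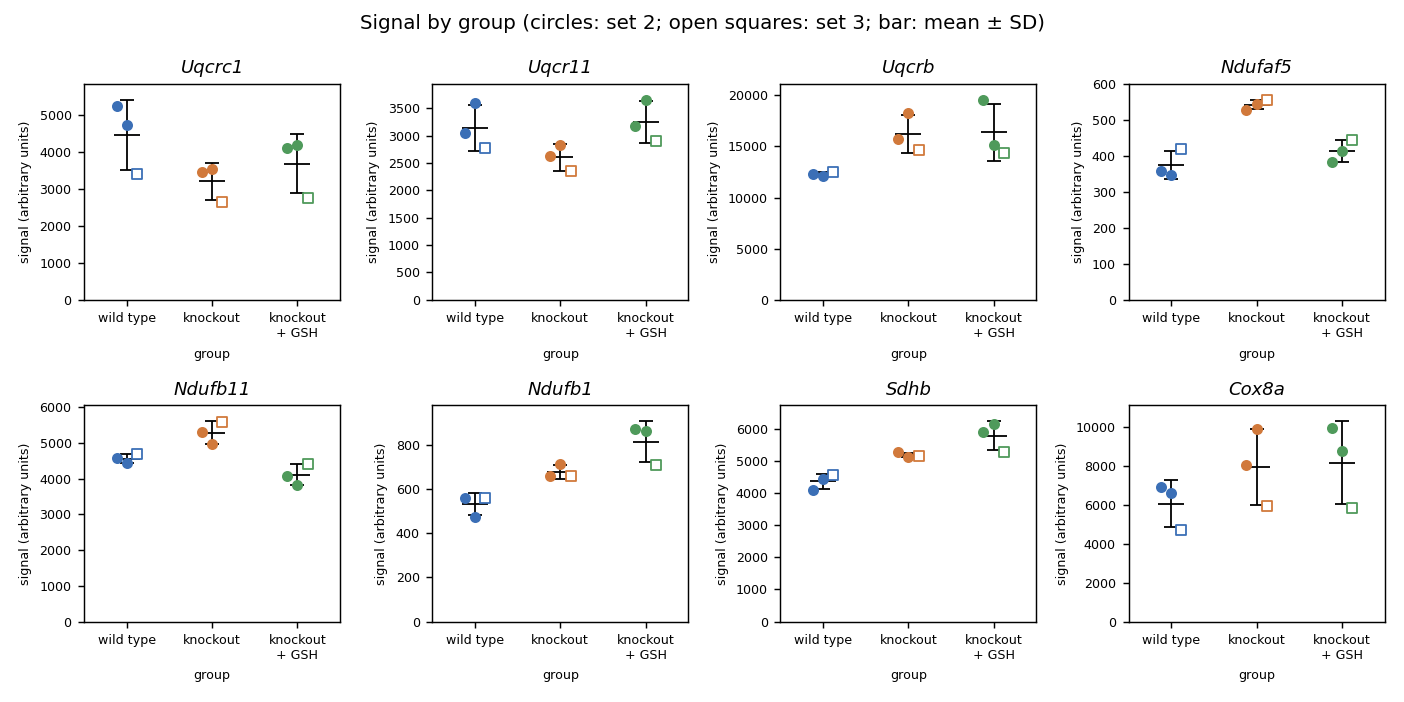
Deposited signal (arbitrary units, axes from 0) of 8 members by group; circles are arrays of set 2, open squares the array of set 3, and bars the mean and SD of 3 arrays. Ndufaf5 is highest in knockout and Ndufb11 lowest with GSH. The Sdhb signals rise over the 3 groups, but the step from knockout to GSH was not called. In Uqcrc1 and Cox8a the set 3 arrays lie below the others of their group.

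In complex IV, cytochrome c oxidase, the calls with GSH against wild type were all in one direction: 8 of 14 tested genes were higher (Cox4i1, Cox5a, Cox6a1, Cox6b1, Cox6c, Cox7a2l, Cox8a and Cox8c) and 0 lower by limma, with 9 and 0 at an unadjusted p under 0.05 and a median log2 change of 0.25. The 8 were 57.1% of the 14, beside 22.5% higher and 22.3% lower of all probe sets. Knockout against wild type gave 1 higher and 0 lower (4 and 0 unadjusted), and GSH against knockout 2 higher and 0 lower (2 and 0 unadjusted). With 1 array left out, knockout against wild type gave 1 to 5 higher (5 without knockout 2) and 0 lower. GSH against knockout then gave 0 to 3 higher and 0 to 1 lower, and 0 and 0 in set 2 alone. The mean over each gene's probe sets gave 3 higher and 0 lower in both. The macrophage markers rose with GSH against wild type, and their part in the complex IV calls was not tested. The count of 8 was 5 to 9 when 1 array was left out (5 without wild type 3 or 5). It was 4 with no set term or in set 2 alone, 3 with the replicate block and 5 with no intensity trend. In each of these 0 were lower. The replicate block matches wild-type arrays by number, and these numbers do not follow the sets. The count of 8 also depended on the scaling. Quantile normalisation, which makes the bright ends of the arrays alike, left 4 higher and 0 lower with a median of 0.10, while the median of all probe sets moved from 0.02 to -0.00. Cox4i1, Cox6a1, Cox6b1 and Cox6c were no longer called (0.09, 0.03, 0.11 and 0.10), and Cox5a, Cox7a2l, Cox8a and Cox8c were. A second probe set of Cox6c was not called in this comparison (-0.09) and was lower in knockout than in wild type (-0.48, adjusted p = 0.00092), against 0.16 on the brightest. ND5, a complex I subunit and the only mitochondrially encoded one analysed here, was 12044, 11789.9 and 12355 in wild type, 13684, 16479 and 15586 in knockout and 17588.5, 16305 and 16708 with GSH, and was higher in knockout (0.33 ± 0.07, adjusted p = 0.0058) and with GSH against wild type (0.48 ± 0.07, adjusted p = 0.00025). All its signals lay above the 99th percentile of their array, the end of the scale that differed between groups. Its changes are given on the deposited scaling only.

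**Figure D4:**
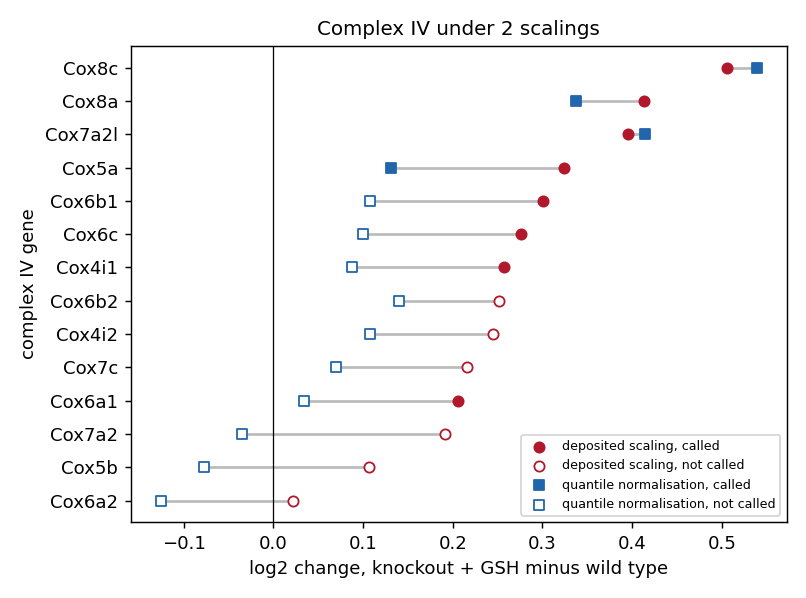
Log2 change of the 14 tested complex IV genes, GSH-supplemented knockout minus wild type, on the deposited scaling (circles) and after quantile normalisation (squares); filled symbols were called at a limma adjusted p under 0.05. The number called higher went from 8 to 4, Cox8c, Cox8a, Cox7a2l and Cox5a were filled under both, and Cox7a2, Cox5b and Cox6a2, called under neither, went below 0.

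Cox8a, the ubiquitous form of subunit 8, was 6882.5, 6585 and 4703 in wild type, 8044, 9856 and 5948 in knockout and 9909.7, 8752 and 5807 with GSH. As for Uqcrc1 the set 3 arrays were lowest, so the groups overlapped, and within each set both Nrf2-/- groups were above wild type. The rise was 0.38 ± 0.08, adjusted p = 0.0053 in knockout and 0.41 ± 0.08, adjusted p = 0.0018 with GSH, and both were kept whichever array was left out. A second probe set rose by 0.33 and 0.35. The other forms of subunit 8 are Cox8b, the heart and muscle form, which was 6.40, 5.20 and 13.2 in wild type, 18.3, 16.6 and 10.6 in knockout and 16.5, 12.8 and 13.7 with GSH, and Cox8c, known from testis, which was 642, 775 and 664 in wild type, 862, 903 and 729 in knockout and 917, 906 and 1138 with GSH. No Cox8b array was above the control level (the 95th percentile of the array's 27 negative controls, 43.4 to 82.9), and the gene was not tested. Cox8c was called higher with GSH against wild type (0.51 ± 0.12, adjusted p = 0.0059), where its groups did not overlap. In knockout it was not called on this probe set (0.26). A dimmer probe set of Cox8c was higher than in wild type both in knockout (1.33 ± 0.46, limma adjusted p = 0.048) and with GSH (1.37 ± 0.46, adjusted p = 0.030).

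Cox7a2l, which helps join complexes III and IV into supercomplexes, was 3229.6, 3402 and 3429 in wild type, 3702.5, 2947 and 3885.5 in knockout and 4287, 3986.5 and 5014 with GSH. GSH arrays were above all others. It rose against knockout (0.34 ± 0.09, adjusted p = 0.011, or 0.01 with the replicate block), a call lost without GSH 4 (adjusted p = 0.061). It also rose against wild type (0.40 ± 0.09, adjusted p = 0.0035). Its 2 other probe sets rose against wild type by 0.21 and 0.29, but were not called against knockout (0.10 and 0.11, limma adjusted p = 0.32 and 0.36). Cox7a2, the common form of subunit 7a, was 13013, 13794 and 13391 in wild type, 13921.5, 16078 and 14484 in knockout and 16642, 15217 and 14146 with GSH, and was called in no comparison (GSH minus wild type 0.19 ± 0.07, adjusted p = 0.053), while its second probe set was higher with GSH against wild type (0.28, adjusted p = 0.0031) and against knockout (0.20, adjusted p = 0.027). Cox7a1, the heart and muscle form, was 75.0, 71.8 and 55.7 in wild type, 77.1, 124 and 71.0 in knockout and 122, 97.3 and 89.2 with GSH, under the filter and not tested. Cox5a was 12297, 12328 and 12839 in wild type, 13017, 13653 and 14579.5 in knockout and 15142, 15075 and 16742 with GSH. It is a subunit of the matrix side, and its 3 groups did not overlap. It was called higher with GSH against knockout (0.19 ± 0.06, adjusted p = 0.021) and wild type (0.32 ± 0.06, adjusted p = 0.00057). The call against knockout was not made with the replicate block (adjusted p = 0.11). It was also lost without knockout 2 or 4 or GSH 4 (adjusted p up to 0.092). Another Cox5a probe set was higher in knockout than in wild type (0.35 ± 0.08, limma adjusted p = 0.0084), and a further one was not called there (0.09, adjusted p = 0.29).

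Subunit 4 regulates the enzyme. Its common form Cox4i1 was 9639, 9498 and 8929.8 in wild type, 9568, 12051 and 10148 in knockout and 11845, 11399 and 10334 with GSH. The GSH arrays lay above wild type (0.26 ± 0.08, adjusted p = 0.021), and the call was lost without wild type 3, 4 or 5 or GSH 2 (adjusted p up to 0.071). Cox4i2, an oxygen-responsive form best known from lung, was 146, 104 and 132 in wild type, 137, 151 and 155 in knockout and 163, 161 and 127 with GSH, above the control level on all 9 arrays and called in no comparison (knockout minus wild type 0.22 ± 0.21, adjusted p = 0.47, interval -0.24 to 0.68). Subunit 6 likewise has common and restricted forms. Cox6a1 was 12300.0, 12371 and 10769 in wild type, 12818, 14215 and 12762 in knockout and 13923, 13887 and 12989 with GSH, and Cox6b1 was 10045, 10302 and 10668 in wild type, 10753, 12116 and 11736 in knockout and 13466, 12623.5 and 12135 with GSH. In both the GSH arrays were above wild type (0.21 ± 0.06, adjusted p = 0.017 and 0.30 ± 0.07, adjusted p = 0.0037); the call of Cox6a1 was lost without wild type 3 or 5 or GSH 4 (adjusted p up to 0.094). Cox6a2, the heart and muscle form, was 145, 179.5 and 115 in wild type, 26.5, 208 and 185 in knockout and 146, 116 and 185 with GSH; a knockout array under the control level gave it the widest interval of any member (-1.86 to 0.82 for knockout minus wild type). Cox6b2, known from testis, was 143.3, 148 and 176 in wild type, 161, 149.9 and 208 in knockout and 165, 212 and 179 with GSH, with overlapping groups and no call.

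Ndufa4, a subunit first assigned to complex I, was 5989, 5957.5 and 5580.5 in wild type, 6165, 6914 and 5614 in knockout and 6330.1, 6362.5 and 4873 with GSH, with overlapping groups and no call. Its paralogue Ndufa4l2, which is induced by hypoxia and takes the place of Ndufa4 in some cells, was 100.8, 43.1 and 29.0 in wild type, 208, 199.7 and 217 in knockout and 97.2, 70.6 and 123 with GSH. Of the wild-type arrays 1 exceeded the control level, as did all 6 others. The knockout arrays lay above all others without overlap. The gene did not pass the filter; fitted without the filter, knockout minus wild type was 2.05 ± 0.42 (limma adjusted p = 0.0074) and GSH minus knockout -1.14 ± 0.42 (0.095). With wild type near the control level, no size is read from the first value.

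**Figure D5:**
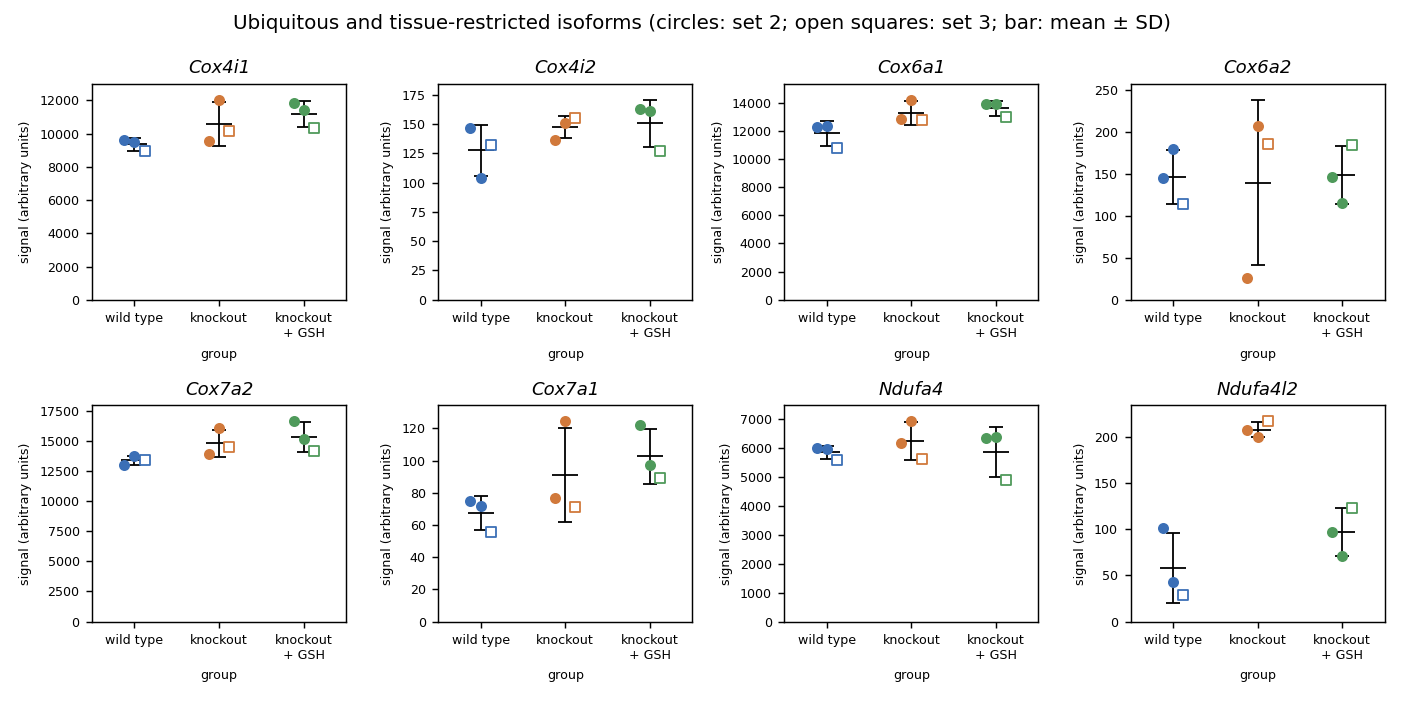
Deposited signal (arbitrary units, axes from 0) of 4 common isoforms and their tissue-restricted counterparts by group; circles are arrays of set 2, open squares the array of set 3, and bars the mean and SD of 3 arrays. Ndufa4l2 is at 200 to 217 on the knockout arrays and at most 123 elsewhere, while Cox4i2 and Cox6a2 overlap over the groups.

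Complex V, the ATP synthase, had 1 of 17 tested genes higher in knockout by limma. With GSH 3 were higher against knockout and 3 against wild type. In each comparison 0 were lower (0, 0 and 1 at an unadjusted p under 0.05). The higher ones were 5.88%, 17.6% and 17.6% of the 17, beside 14.6%, 18.4% and 22.5% of all probe sets. Quantile normalisation gave 1 higher and 1 lower, 3 and 2, and 1 and 2 in the same order. It moved the median log2 change with GSH against wild type from 0.08 to -0.01. Leaving out 1 array gave 0 to 2, 0 to 3 and 1 to 4 higher and 0 to 1 lower in each, with 0 higher against knockout without knockout 2 or GSH 3. Atp5g3, which encodes the c subunit of the rotor together with Atp5g1 and Atp5g2, was 13435, 12250.4 and 12125 in wild type, 14784, 17140.1 and 14024 in knockout and 16403, 14764 and 13653 with GSH. Both Nrf2-/- groups were above wild type (0.28 ± 0.08, adjusted p = 0.017 in knockout and 0.24 ± 0.08, adjusted p = 0.021 with GSH), but under quantile normalisation neither was called (0.08 and 0.05), and the calls were lost without wild type 4 (adjusted p = 0.095) and without wild type 4 or GSH 2 (adjusted p up to 0.11). Atp5g3 lies on the same chromosome as Nfe2l2, the targeted gene, with 14 protein-coding genes between them in RefSeq (GRCm38.p6), closer than any other member on it. Atp5g1 and Atp5g2, for the same protein, were called in no comparison.

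Atp5h, a part of the stator stalk, was 6786, 6735 and 7239.6 in wild type, 6404, 7076 and 6947 in knockout and 8611, 9136 and 7329 with GSH. GSH arrays were above both other groups (0.29 ± 0.08, adjusted p = 0.017 against knockout and 0.27 ± 0.08, adjusted p = 0.021 against wild type), by 0.40 in set 2 and 0.08 in set 3 against knockout. Its second probe set gave 0.00 ± 0.07 against knockout, and the call against knockout was lost without knockout 2 or GSH 2 or 3 (adjusted p up to 0.075). That against wild type was lost without wild type 3 or 4 or GSH 2 or 3 (adjusted p up to 0.089) and under quantile normalisation (adjusted p = 0.056). Atp5e, the epsilon subunit, was 3181, 3388 and 2589.9 in wild type, 3421, 3267.5 and 2940.2 in knockout and 3762, 4085 and 3192 with GSH. Within each set its GSH arrays were highest (0.19 ± 0.06, adjusted p = 0.038 against knockout and 0.27 ± 0.06, adjusted p = 0.0053 against wild type). Atp5l, a membrane subunit, was 4930.5, 5001 and 5953 in wild type, 4379, 4749 and 5564.5 in knockout and 5353.5, 5373 and 6113 with GSH. It was higher with GSH against knockout (0.20 ± 0.06, adjusted p = 0.018). With the replicate block neither Atp5e nor Atp5l was called against knockout (adjusted p = 0.094 and 0.071), and these calls were also lost without wild type 3 or 4 or knockout 2 or 3 or GSH 3 or 4 (adjusted p up to 0.13) and without knockout 2 or GSH 3 (adjusted p up to 0.064). Atp5a1 and Atp5b, the alpha and beta subunits of the catalytic head, were not called: their knockout minus wild type intervals were -0.07 to 0.17 and -0.15 to 0.11. A dim second probe set of Atp5a1 was lower in knockout (-0.56, adjusted p = 0.049).

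Over the 3 groups, the 43 called members fell into many patterns, and only some of these are named here. The most common was a call only in GSH-supplemented cells against wild type, with 11 genes higher and 5 lower. In that comparison 44.7% of all probe sets were called. A further 7 were above wild type in both Nrf2-/- groups with no call between these (Atp5g3, Cox8a, Ndufa3, Ndufb1, Ndufv3, Sdhb and Uqcrb), and 2 were below in both (Ndufb10 and Ndufb6). A second Ndufb6 probe set was not called against wild type in knockout (-0.007, limma adjusted p = 0.97) or with GSH (-0.10, adjusted p = 0.50). Called in opposite directions by knockout and by GSH were 4: Ndufaf5 and Ndufb11, up and then down, and Uqcrc1 and Uqcr11, down and then up. For each of these 4 genes both calls use the same knockout arrays, so they are not independent results.

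Other genes of mitochondria were read from lists of related roles, to be set beside the 14.6% of all probe sets called higher and 14.6% called lower in knockout. In knockout against wild type, mitochondrial import genes gave 0 higher and 7 lower of 21 (median -0.16), led by Timm8a1 (-0.66 ± 0.07, adjusted p = 2.5e-05), an intermembrane-space chaperone, and Tomm70a (-0.38 ± 0.07, adjusted p = 0.0013), an import receptor. Mitochondrial ribosomal proteins gave 2 higher and 10 lower of 76 (median -0.06), shares no larger than those of all probe sets, with Mrpl9 lowest in p (-0.66 ± 0.11, adjusted p = 0.0008). With GSH against wild type, these 2 lists had 1 higher and 11 lower, and 6 higher and 18 lower, where 22.5% and 22.3% of all probe sets were called. Assembly factors outside the rule gave 0 higher and 3 lower of 36 in knockout, among them Tmem70 (-0.78 ± 0.07, adjusted p = 1e-05), needed to assemble complex V, and Sco2 (-0.46 ± 0.10, adjusted p = 0.0055), a copper chaperone of complex IV.

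Genes of ubiquinone synthesis and electron carriers gave 1 higher and 3 lower of 17 in knockout, the lower ones being Coq10b (-0.57 ± 0.08, adjusted p = 0.00033), Coq4 (-0.44 ± 0.11, adjusted p = 0.012) and Coq3 (-0.39 ± 0.10, adjusted p = 0.014). In the tricarboxylic acid cycle list 1 was higher and 3 lower of 17 in knockout. Idh2, the NADP-dependent isocitrate dehydrogenase, rose in knockout (0.38 ± 0.08, adjusted p = 0.0038) and was below wild type with GSH (-0.60 ± 0.08, adjusted p = 7.9e-05). Of 21 regulators of mitochondrial DNA and biogenesis, 2 were higher and 4 lower in knockout. Tfb1m, a methyltransferase of mitochondrial ribosomal RNA, rose (0.85 ± 0.14, adjusted p = 0.00094), and Ppargc1b, a coactivator of respiratory genes, was higher in knockout (0.43 ± 0.12, adjusted p = 0.017) and with GSH (1.02 ± 0.12, adjusted p = 2.6e-05). Of 9 carriers and porins, 2 were higher in knockout, the ADP/ATP carrier Slc25a5 (0.29 ± 0.07, adjusted p = 0.0068) and the porin Vdac2 (0.22 ± 0.07, adjusted p = 0.045), and 0 lower by limma. No test of any list as a whole was made. X-linked genes were looked up among the members only. For X-linked genes of these lists, the difference in sex-linked genes against wild type likewise cannot be told apart from genotype.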

How the data were processed

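RNA of 9 samples was hybridised to Affymetrix mouse arrays. The values are the authors' deposited intensity signals on a linear scale, scaled per array to a 2% trimmed mean of 500 as the values show; the software used is not given in these sources. Of 45101 probe sets, 64 controls were left out. After log2 (2 values at 0 were set to 0.1), 22519 probe sets with a geometric mean signal of at least 116 entered a linear model (limma 3.58.1, R 4.3.3) with group and set as terms and an intensity trend in the prior (5 residual and 6.08 prior degrees of freedom), and p-values were adjusted by Benjamini-Hochberg over all of them. The fit was tested on simulated data with known changes. Array data give no read depth, and 3 arrays a group limit the precision.

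A probe set was used only where the annotation gives it 1 symbol (34945; 932 have several and 9160 none). Members and lists were chosen with earlier results of these data known. Values by array are given for the 2 called members of largest change in each direction in each complex and comparison (or, with none called, the smallest p), alternative isoforms, complex II, core subunits of complex I and the 2 X-linked genes, the latter added after their values were seen; of the other lists, up to 3 genes by p are named. Knockout and GSH arrays of the same number deviated together from their groups (correlations 0.32, 0.29 and 0.67 across probe sets), so these numbers were taken as pairs; within set 2 knockout and GSH arrays of different numbers correlated at 0.39 and 0.24, so the number cannot be told apart from the set, and wild-type numbers do not follow the sets. Alternatives were quantile normalisation, other filters, no set term, a replicate block, the 6 arrays compared, set 2 alone, set 3 alone, no intensity trend, the fold rule in the series' design text, the mean over probe sets, and leaving out each array.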

Additional observations from a re-analysis of the deposited data

How the results depend on the processing

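Counts of members called moved under several alternatives, and the cause was not tested. They are given as higher and lower. In knockout against wild type (10 and 7), no filter gave 4 lower, no set term 1 and 0, set 2 alone 5 and 2, no intensity trend 3 and 2, the design text's fold rule 0 and 0, and leaving out 1 array 3 to 14 and 2 to 7. With GSH against knockout (7 and 8), quantile normalisation gave 13 lower, no filter 5 lower, no set term 0 and 1, only the 6 arrays compared 3 and 4, set 2 alone 3 lower, no intensity trend 2 and 5, the fold rule 0 and 0, the mean over probe sets 11 higher, and leaving out 1 array 3 to 8 and 4 to 9. A count there moved by over 1.5-fold without wild type 4, knockout 2, 3 or 4, or GSH 3 or 4. With GSH against wild type (22 and 12), quantile normalisation gave 16 and 15 and no set term 8 and 3. No intensity trend gave 13 higher there and the fold rule 1 and 1. With 1 array left out the counts were 13 to 25 and 8 to 13. The higher count moved by over 1.5-fold without wild type 3 (13) or 4 (14).

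The replicate block gave, over all 9 arrays, 1 and 2 in knockout against wild type and 2 and 2 with GSH against knockout. With GSH against wild type it gave 6 and 2. On the 6 arrays compared it gave 0 and 1, 3 and 4, and 6 and 2. Wild-type numbers do not follow the sets, so against wild type the block also matches arrays of different sets. Over all probe sets, 6560, 7964 and 10074 were called in the 3 comparisons, 2774, 4574 and 6181 with no set term, 3253, 5824 and 6586 with the replicate block on 9 arrays, 2098, 6888 and 6012 with it on 6, and 2481, 3593 and 4765 by the fold rule.

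Among members called in the reported fit or in the alternative, directions turned for 5 genes. With the mean over probe sets, Atp5a1 was -0.22 and Ndufs8 0.13 in knockout minus wild type, and Ndufab1 was 0.051 and Ndufs8 0.12 with GSH minus wild type. Atp5b was -0.14 in that comparison under quantile normalisation, and Ndufb6 0.0089 with the replicate block. The cause was not tested. Signals near the control level limit Cox7b2, Cox8b, Cox6a2 and Ndufa4l2.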

Other observations

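The annotation gave 10 probe sets that would have met the symbol rule several symbols, and they were left out of the members. One that carries Ndufab1 and its pseudogene was lower in knockout than in wild type (log2 change -0.39, limma adjusted p = 0.0075) and with GSH (-0.45, adjusted p = 0.0019), while the member probe set for Ndufab1 alone was called only with GSH against wild type.

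For called members with other tested probe sets, these were compared. In knockout against wild type, 9 called members had 14 others, of which 10 had the same sign, 4 were called the same way and 1 the opposite way. With GSH against knockout, 8 members had 16 others, with 13 of the same sign, 5 called the same way and 1 the opposite way. With GSH against wild type, 18 had 26, with 21 of the same sign, 10 called the same way and 2 the opposite way. Probe sets of one gene can lie on different transcripts, so they are not replicates.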
